A study of Homo sapiens with 12 samples.

Results

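The 9 genes described here make up the MHC class I antigen presentation pathway: the heavy chains HLA-B, HLA-C, HLA-E and HLA-F, the light chain B2M, the peptide transporter subunits TAP1 and TAP2, the loading chaperone TAPBP and the regulator NLRC5. They were chosen by name, as the class I heavy chains, light chain, peptide transport genes and regulator among 60675 Ensembl gene IDs of the deposited count table, of which 30808 held a count after rounding. Each of the 9 symbols matched 1 ID. The cells were SW1783, a line grown from a human astrocytoma, kept for 24 h with vehicle or with an extract, made in water, of Aconitum carmichaeli Debeaux (ACD) before RNA sequencing. The low dose of the extract was 20 µg/mL, the medium dose 100 µg/mL and the high dose 500 µg/mL, so that 12 libraries fell into 4 groups of 3. The vehicle was phosphate-buffered saline that held 2% DMSO. All 12 libraries came from the same unmodified line, and the labels do not say whether the 3 libraries of a group came from separate cultures, so p-values measure the spread between these libraries, which may be technical. The treatment protocol in the labels describes another herb, Poria cocos, but the titles and treatment labels, on which the groups rest, name ACD.

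MHC class I molecules carry peptides from the inside of a cell to its surface, where CD8 T cells and natural killer cells read them. A heavy chain pairs with beta-2-microglobulin (B2M) in the endoplasmic reticulum. Peptides cut by the proteasome are pumped in by the TAP1 and TAP2 transporter and are loaded with the help of tapasin (TAPBP) and of general chaperones. Resting astrocytes carry little class I and raise it under interferon, which acts on these promoters through interferon response elements, NF-kB sites and an upstream module bound by RFX, CREB/ATF and NF-Y proteins and by the co-activator NLRC5.

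At the high dose, 7 of the 9 genes were higher than in vehicle by adjusted p and 0 were lower (23.9% of all genes tested were higher and 22.6% lower). HLA-B rose by 41.5%, the heavy chains HLA-C, HLA-E and HLA-F by 26.9% to 27.7%, B2M by 28.1%, TAP1 by 23.7% and TAP2 by 17.0%. TAPBP and NLRC5 did not pass the test. No gene reached a 1.5-fold change at any dose, so 0 of 9 were differentially expressed genes (DEGs) under the study's rule of an adjusted p under 0.05 and a fold change over 1.5 (18.2% of genes tested were DEGs at the high dose).

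Total expected counts per library lay between 18863863 and 24200576. The 9 genes together took 0.220% to 0.221% of the counts in the vehicle libraries and 0.251% to 0.262% in the high dose libraries. Mitochondrial counts took 5.03% to 5.29% of the vehicle libraries, 10.6% to 10.8% of the medium dose libraries and 8.99% to 9.29% of the high dose libraries. Of the markers of astrocytes and glioma, VIM, CD44 and SOX9 were high in vehicle, with mean normalised counts of 88412, 56908 and 1434, whereas AQP4 was at 0 throughout and GFAP and S100B were close to 0, at 2.79 and 2.29. Of the 11 genes of that list, 4 were lower and 2 higher at the high dose by DESeq2 adjusted p (22.6% and 23.9% of genes tested). SLC1A3, a glutamate transporter of astrocytes, went from 690 in vehicle to 126 under the high dose, and the intermediate filament gene NES from 214 to 64.7. Both were DEGs, as 9.57% of genes tested were in that direction. CD44 stood at 76.8% and SOX9 at 84.1% of the vehicle mean, whereas VIM stood at 122% and OLIG2, with at most 3 counts in a vehicle library, rose to 24.5. Of 9 leukocyte and microglia markers only PTPRC (CD45) had an appreciable level. The summed level of the list lay between 262 and 292 in vehicle and between 75.8 and 111 under the high dose, and CD3E and MS4A1 were at 0 in every library. Markers of endothelial cells summed to at most 21.0, and those of epithelial cells to at most 6.28. The 3 neuron markers summed to between 1311 and 1372 in vehicle and between 998 and 1064 under the high dose, with opposite directions in SNAP25, which fell from 704 to 167 (a DEG), and SYT1, which rose from 638 to 868. The astrocyte and glioma, leukocyte and neuron markers and the mitochondrial share moved with dose, and the part of each in the results was not tested. In bulk RNA, fewer cells with a transcript and less transcript per cell cannot be told apart.

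On GRCh38, 7 of the 9 genes lie on chromosome 6 in the MHC region. HLA-F lies at chr6:29722775-29738528, HLA-E at chr6:30489509-30494194, HLA-C at chr6:31268749-31272130 and HLA-B at chr6:31353872-31367067. TAP2 (chr6:32821833-32838739), TAP1 (chr6:32845209-32853816) and TAPBP (chr6:33299694-33314284) follow. B2M lies at chr15:44711358-44718851 and NLRC5 at chr16:56989485-57083531. HLA-E, HLA-F, B2M and NLRC5 are on the plus strand and the others on the minus strand.

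The promoters of HLA-B, HLA-C, B2M, TAP1 and TAPBP are printed because they hold the elements through which class I genes are known to be switched on, and because the first 4 of these genes rose while TAPBP did not pass the test. Each is the RefSeq reference sequence of GRCh38.p14, 5′ to 3′ on the gene's own strand, over the 200 bases that end just before the annotated start, and not the alleles of SW1783. Capitals mark matches, on either strand, to an interferon response element (GAAA, any 2 bases and GAAA again), the NF-kB consensus site of 10 letters, the CRE core TGACG or the NF-Y box CCAAT. Overlapping matches to 1 motif run together into 1 stretch of capitals. HLA-B is shown at chr6:31357180-31357379 (minus strand), HLA-C at chr6:31272093-31272292 (minus), B2M at chr15:44711317-44711516 (plus), TAP1 at chr6:32853705-32853904 (minus) and TAPBP at chr6:33314079-33314278 (minus).
HLA-B: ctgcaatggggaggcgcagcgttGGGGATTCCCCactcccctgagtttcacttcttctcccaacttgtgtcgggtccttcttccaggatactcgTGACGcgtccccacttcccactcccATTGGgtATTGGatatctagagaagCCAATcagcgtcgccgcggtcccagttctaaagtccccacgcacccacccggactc
HLA-C: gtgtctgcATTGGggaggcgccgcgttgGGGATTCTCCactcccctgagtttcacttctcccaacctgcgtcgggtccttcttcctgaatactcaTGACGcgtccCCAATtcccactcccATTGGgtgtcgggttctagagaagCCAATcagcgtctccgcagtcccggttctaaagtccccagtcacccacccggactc
B2M: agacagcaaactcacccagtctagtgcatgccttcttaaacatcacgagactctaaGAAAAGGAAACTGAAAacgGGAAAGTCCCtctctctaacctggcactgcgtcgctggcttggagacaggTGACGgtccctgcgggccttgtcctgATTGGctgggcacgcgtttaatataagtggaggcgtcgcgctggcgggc
TAP1: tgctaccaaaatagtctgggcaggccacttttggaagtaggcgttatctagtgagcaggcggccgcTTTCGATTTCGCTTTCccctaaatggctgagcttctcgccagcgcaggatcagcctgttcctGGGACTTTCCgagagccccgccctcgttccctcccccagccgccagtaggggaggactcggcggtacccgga
TAPBP: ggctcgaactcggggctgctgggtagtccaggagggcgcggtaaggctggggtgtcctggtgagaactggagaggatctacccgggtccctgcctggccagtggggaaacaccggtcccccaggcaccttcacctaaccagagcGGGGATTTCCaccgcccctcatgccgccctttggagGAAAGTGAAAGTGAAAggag

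RefSeq windows of 300 bases, from 250 before to 50 after a start, were found for 7 of the 9 genes and gave 8 windows, since TAP1 has a second start. No window was found for HLA-E and NLRC5. The exact interferon element pattern searched was matched in HLA-F, B2M, TAP1, TAP2 and TAPBP, and in 3.57% of all 35116 promoters in the same table. HLA-B and HLA-C held no match to this pattern. That does not show that they lack an interferon element, since elements with other letters were not searched for. The NF-kB site was matched in HLA-B, HLA-C, B2M, TAP1 and TAPBP, against 5.91% of all promoters. TGACG was found in HLA-B, HLA-C, B2M and TAP2, against 24.6% of promoters, and CCAAT in HLA-B, HLA-C, HLA-F, B2M and TAP1, against 34.6%. HLA-B and HLA-C shared an arrangement: the NF-kB match began 177 and 172 bases before the start, TGACG 106 and 105 bases before it, and a CCAAT box 56 bases before it in both. TAPBP held both an interferon element match and an NF-kB match, at 20 and 56 bases before its start. The second TAP1 window held no match to any of the 4 motifs. A match describes letters in a reference window and says nothing of binding in these cells.

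**Figure D1:**
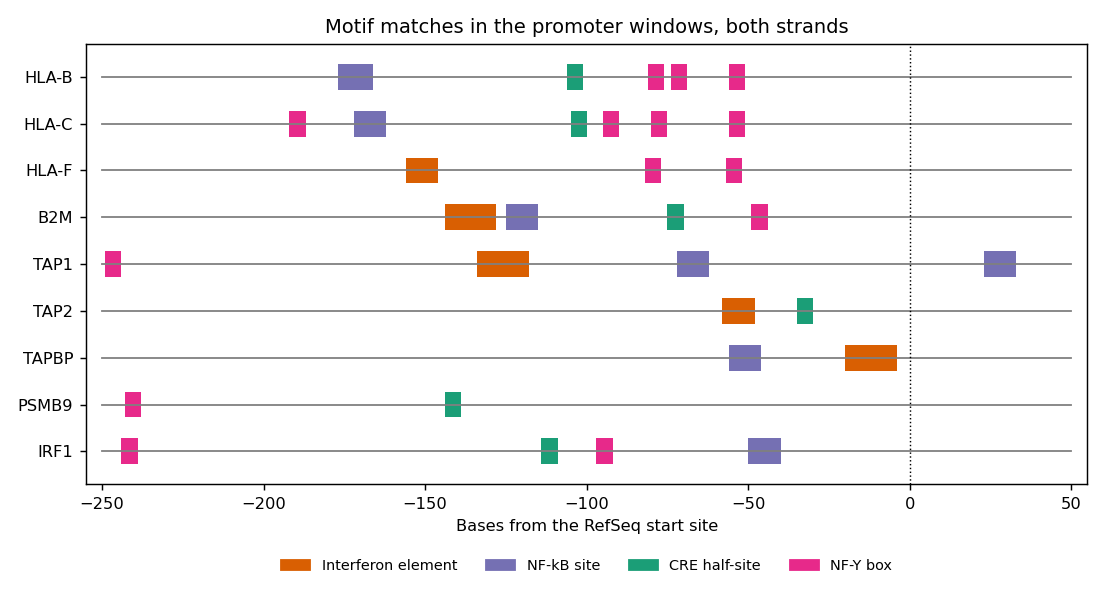
Positions of motif matches (coloured blocks) along RefSeq promoter windows of 7 class I genes and of PSMB9 and IRF1, with the horizontal axis in bases from the start site (dotted line). For TAP1 the window at the upstream start is drawn. Matches to the searched interferon pattern appear in HLA-F, B2M, TAP1, TAP2 and TAPBP, and the boxes of HLA-B and HLA-C fall at near equal distances from the start.

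The classical heavy chains HLA-B and HLA-C, which present peptides to CD8 T cells, are taken first. Normalised counts of HLA-B (ENSG00000234745), that is counts divided by DESeq2 size factors, were 6834, 6847 and 6915 in the vehicle libraries, 7299, 6533 and 6632 under the low dose, 7740, 7621 and 7504 under the medium dose, and 9390, 10286 and 9448 under the high dose. All medium and high dose libraries lay above all vehicle libraries, and low dose libraries lay on both sides of them. In log2 fold change, the difference was 0.50 with the high dose (SE 0.0396, 95% interval 0.42 to 0.58, adjusted p = 2.12e-35, DESeq2), 0.15 with the medium dose (SE 0.0398, adjusted p = 0.00107, DESeq2) and -0.0089 with the low dose (adjusted p = 0.959, DESeq2). The high dose exceeded the medium dose by 0.35 (adjusted p = 1.31e-17, DESeq2).

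HLA-C (ENSG00000204525) stood at 8362, 8312 and 8382 normalised counts in vehicle, 8563, 8546 and 8196 under the low dose, 9185, 9462 and 8946 under the medium dose, and 10479, 10876 and 10551 under the high dose. As for HLA-B, the vehicle libraries were all below the medium and high dose libraries and overlapped with the low dose. Its log2 fold change was 0.35 with the high dose (SE 0.0278, adjusted p = 6.15e-35, DESeq2) and 0.14 with the medium dose (SE 0.0280, adjusted p = 7.48e-06, DESeq2).

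RSEM divides reads that fit several HLA genes among them, and both HLA-B and HLA-C had values that were not whole in all 12 libraries, so the split between them is uncertain. Annotated genes on the opposite strand overlap 14.8% of the HLA-B exon bases, and genes on the same strand overlap 32.7%. Within a library, the log2 ratio of HLA-B to HLA-C was -0.28 ± 0.00717 in vehicle (SD, n = 3) and -0.13 ± 0.0452 at the high dose, where each library lay above the vehicle range. At the low and medium doses this ratio overlapped with vehicle, at -0.31 ± 0.0786 and -0.27 ± 0.0360.

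HLA-E and HLA-F are nonclassical heavy chains. HLA-E displays leader peptides of other class I chains to the NKG2A receptor of natural killer cells. HLA-E (ENSG00000204592) had 4520, 4425 and 4532 normalised counts in vehicle, 4533, 4511 and 4269 under the low dose, 4878, 4745 and 4252 under the medium dose, and 5636, 5722 and 5853 under the high dose. The high dose libraries were above every other library, whereas the medium dose libraries spanned the vehicle range. The log2 fold change was 0.35 with the high dose (SE 0.0419, adjusted p = 3.24e-16, DESeq2) and 0.04 with the medium dose (SE 0.0423, adjusted p = 0.516, DESeq2). High exceeded medium by 0.31 (adjusted p = 1.15e-12, DESeq2).

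HLA-F (ENSG00000204642) was the weakest of the heavy chains, with 398, 437 and 459 normalised counts in vehicle, 478, 424 and 436 under the low dose, 493, 495 and 444 under the medium dose, and 557, 551 and 535 under the high dose. Only the high dose libraries were clear of the vehicle range. Its log2 fold change with the high dose was 0.34 with an SE of 0.0870, wider than for the other rising genes (adjusted p = 0.000252, DESeq2), and 0.14 with the medium dose (adjusted p = 0.224, DESeq2). Against the medium dose it was 0.20 (95% interval 0.03 to 0.37, adjusted p = 0.0507, DESeq2). HLA-F-AS1 and other genes on the opposite strand overlap 28.0% of its exon bases. HLA-F-AS1 itself held 35.2 to 64.0 expected counts per library, and whether the counting used strand is not stated.

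Summed over the 4 heavy chains, normalised counts were 20141 ± 135 in vehicle, 20141 ± 679 for the low dose, 21921 ± 672 for the medium dose and 26628 ± 718 with the high dose (SD, n = 3), the last being 132% of the vehicle mean.

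B2M (ENSG00000166710), the light chain shared by all class I molecules, was the most abundant of the 9 genes. It had 13723, 13720 and 13697 normalised counts in vehicle, 14453, 14389 and 15348 under the low dose, 15247, 15551 and 15729 under the medium dose, and 16897, 18073 and 17702 under the high dose. Every dosed library was above every vehicle library, and the high dose libraries were above all others. Its log2 fold change was 0.10 with the low dose (SE 0.0290, adjusted p = 0.0163, DESeq2), 0.18 with the medium dose (SE 0.0289, adjusted p = 1.45e-08, DESeq2) and 0.36 with the high dose (SE 0.0288, adjusted p = 5.53e-34, DESeq2).

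B2M was the single gene of the 9 that passed the adjusted p at the low dose. That call was lost in edgeR, with the non-mitochondrial total as size factor, without independent filtering, and when any 1 vehicle library or low dose replicate 3 was left out, with adjusted p between 0.00905 and 0.235 over all alternatives. The 3 vehicle values of B2M lay closer together (SD 14.1) than the square root of their mean. The log2 ratio of HLA-B to B2M was -0.998 ± 0.0105 in vehicle and -0.86 ± 0.0469 at the high dose, all 3 high dose libraries being above the vehicle range.

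**Figure D2:**
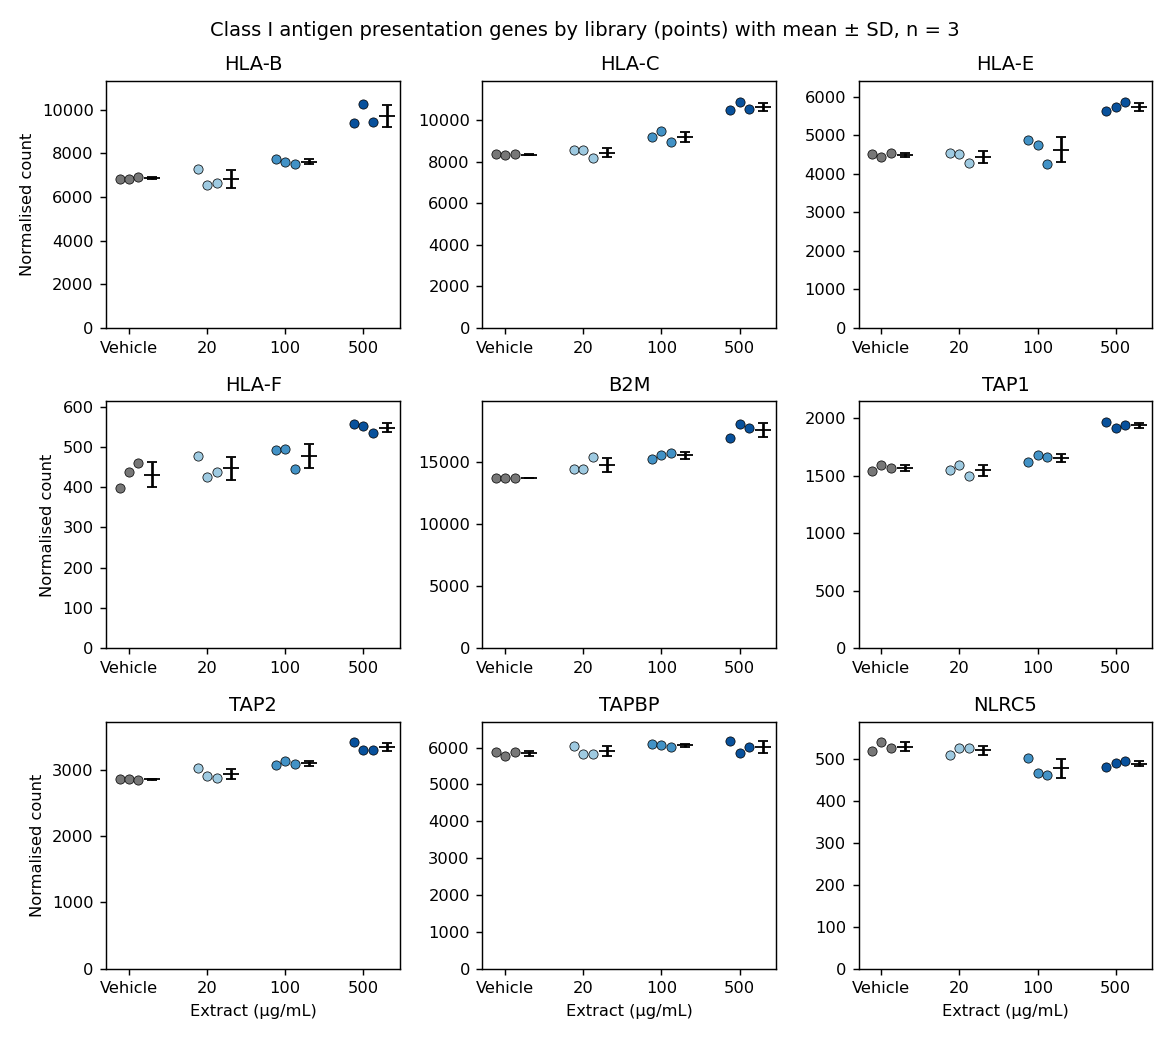
Normalised counts of the 9 genes in each of 12 libraries, with 1 point per library and the mean ± SD (n = 3) beside each group, by extract dose in µg/mL. The high dose points of HLA-B, HLA-C, HLA-E, HLA-F, B2M, TAP1 and TAP2 lie above all other points of the same gene, those of TAPBP overlap with vehicle, and those of NLRC5 lie slightly below vehicle.

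TAP1 and TAP2 form the transporter that brings peptides into the endoplasmic reticulum. TAP1 (ENSG00000168394) had 1543, 1588 and 1566 normalised counts in vehicle, 1550, 1595 and 1495 under the low dose, 1619, 1681 and 1663 under the medium dose, and 1962, 1915 and 1936 under the high dose. The high dose libraries stood apart from the rest and the medium dose libraries were narrowly above vehicle. On the log2 scale the change was 0.31 with the high dose (SE 0.0451, adjusted p = 7.05e-11, DESeq2) and 0.08 with the medium dose (SE 0.0459, adjusted p = 0.191, DESeq2).

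TAP2 (ENSG00000204267) had 2854, 2858 and 2845 normalised counts in vehicle, 3025, 2903 and 2878 under the low dose, 3068, 3130 and 3081 under the medium dose, and 3415, 3301 and 3303 under the high dose. All dosed libraries were above the vehicle libraries. In log2 fold change, the difference was 0.04 with the low dose (adjusted p = 0.663, DESeq2), 0.12 with the medium dose (SE 0.0356, adjusted p = 0.00527, DESeq2) and 0.23 with the high dose (SE 0.0353, adjusted p = 8.23e-10, DESeq2). For TAP2 a gene on the same strand overlaps 19.5% of the exon bases, and PSMB8-AS1 overlaps 14.2% of those of TAP1 on the other strand.

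The log2 ratio of TAP1 to TAP2 within a library was -0.87 ± 0.0202 in vehicle, -0.90 ± 0.0168 for the medium dose and -0.78 ± 0.0145 for the high dose. Medium dose libraries were all below the vehicle range and high dose libraries were all above it.

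TAP1 shares a divergent promoter with PSMB9, a subunit of the immunoproteasome, and their RefSeq starts are 488 bases apart. PSMB9 had 342, 341 and 357 normalised counts in vehicle and 336, 341 and 329 under the high dose. Its log2 fold change was -0.05 (95% interval -0.24 to 0.15, adjusted p = 0.741, DESeq2). The log2 ratio of TAP1 to PSMB9 was 2.18 ± 0.0439 in vehicle, 2.31 ± 0.0801 for the low dose, 2.37 ± 0.0926 for the medium dose and 2.53 ± 0.0348 for the high dose. At each dose all 3 libraries lay above the vehicle range.

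**Figure D3:**
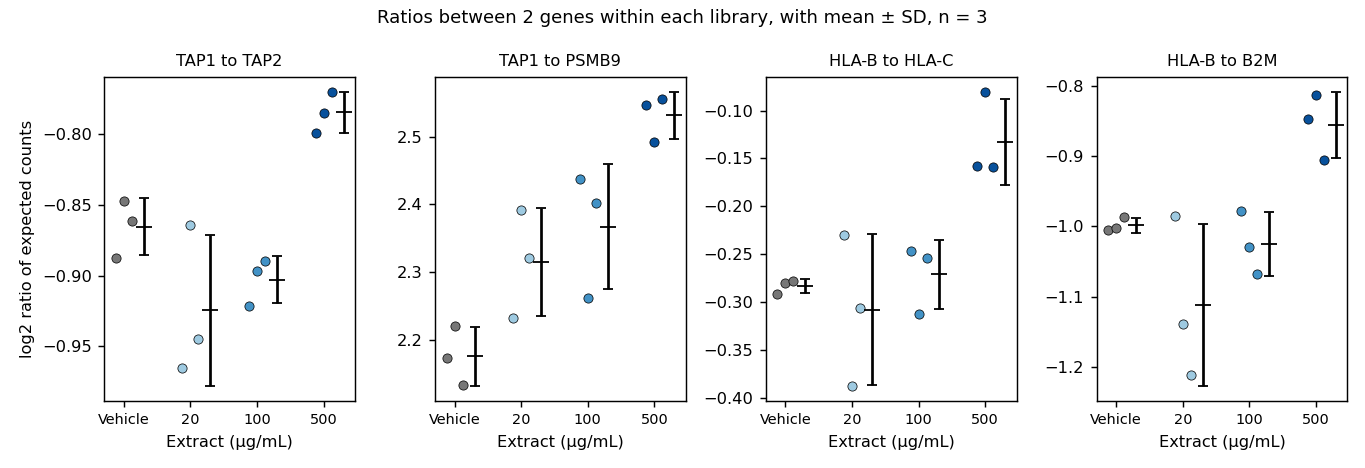
Log2 ratios of expected counts between 2 genes of the same library (points), with mean ± SD (n = 3), by extract dose in µg/mL. The vertical axes do not start at 0. In each of the 4 panels the high dose points lie above the vehicle points, and for TAP1 to PSMB9 the low and medium dose points do so as well.

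Tapasin, encoded by TAPBP (ENSG00000231925), holds empty class I molecules at the transporter while peptide is loaded. It had 5893, 5774 and 5882 normalised counts in vehicle, 6054, 5834 and 5816 under the low dose, 6091, 6074 and 6011 under the medium dose, and 6182, 5847 and 6006 under the high dose. The high dose libraries overlapped with vehicle, and the medium dose libraries lay just above it. The log2 difference was 0.04 with the high dose (95% interval -0.02 to 0.10, adjusted p = 0.298, DESeq2), and -0.012 with the non-mitochondrial total as size factor. At the medium dose it was 0.05 (adjusted p = 0.194, DESeq2).

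NLRC5 (ENSG00000140853) is the co-activator that drives class I promoters. It was the least abundant of the 9 per kilobase, with 521, 541 and 528 normalised counts in vehicle, 510, 526 and 527 under the low dose, 504, 468 and 464 under the medium dose, and 483, 492 and 495 under the high dose. All medium and high dose libraries lay below the vehicle libraries. The log2 difference was -0.15 with the medium dose (95% interval -0.30 to 0.0037, adjusted p = 0.142, DESeq2) and -0.11 with the high dose (95% interval -0.27 to 0.04, adjusted p = 0.246, DESeq2). Neither passed the test here. Over the alternatives the adjusted p reached 0.0300 at its lowest for the medium dose and 0.0585 for the high dose.

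**Figure D4:**
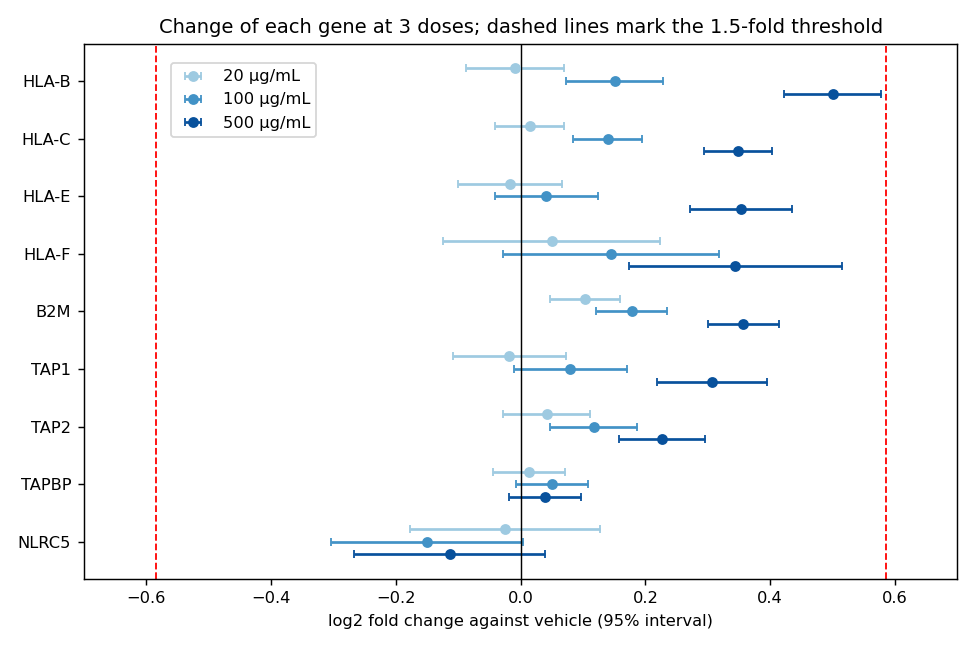
Log2 fold change against vehicle (points) with 95% intervals (bars) for the 9 genes at 3 doses, from the DESeq2 fit to all 12 libraries. At 500 µg/mL the intervals of 7 genes lie wholly above 0, those of TAPBP and NLRC5 include 0, and every interval stays inside the 1.5-fold lines.

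Taking the 9 genes as a group, 0 of 9 were DEGs at the high dose, where 18.2% of 19453 genes tested were. By DESeq2 adjusted p alone 7 of 9 were higher and 0 lower, beside 23.9% of genes tested that were higher and 38.7% among the 8099 whose mean normalised count was at least 400. All 3 high dose libraries were above all vehicle libraries for 7 of 9 genes (30.6% of genes tested) and below them for 1 of 9 (29.9%). The median log2 fold change was 0.34 over the 9 genes and 0.03 over genes with a mean of at least 400. The edgeR test likewise called 0 of 9 DEGs (3901 of 15983 genes tested).

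At the medium dose 0 of 9 were DEGs (3.81% of 14082 genes tested). HLA-B, HLA-C, B2M and TAP2, 4 of 9, passed the adjusted p and were 8.47% to 13.1% higher, beside 15.1% of genes tested that were higher and 20.6% of those with a mean of at least 400. All medium dose libraries were above vehicle for 6 of 9 (25% of genes tested) and below it for 1 of 9 (25.4%). The median log2 fold change was 0.12, beside 0.0013 over genes with a mean of at least 400. With edgeR, 0 of 9 were called (809 of 15983 genes tested).

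At the low dose 0 of 9 were DEGs (0.118% of 9304 genes tested). B2M was 7.41% higher and passed the adjusted p, as 2.05% of genes tested did in that direction and 2.32% of those with a mean of at least 400. For 2 of 9 genes, B2M and TAP2, the low dose libraries were all above vehicle (14.1% of genes tested), and for the other 7 they overlapped. The adjusted p of the other 8 genes lay between 0.663 and 0.959, and their log2 differences between -0.02 and 0.05. With edgeR, 0 of 9 were called (30 of 15983 genes tested).

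Between the high and medium doses 0 of 9 passed both thresholds (10.2% of 16467 genes tested). HLA-B, HLA-C, HLA-E, B2M, TAP1 and TAP2, 6 of 9, passed the DESeq2 adjusted p and were 7.87% to 27.4% higher at the high dose, beside 21.1% of genes tested that were higher and 31.9% of those with a mean of at least 400. For 7 of 9 all high dose libraries were above all medium dose libraries (28.7% of genes tested). With edgeR, 0 of 9 were called (2035 of 15983 genes tested). The comparisons of each dose with vehicle share the vehicle libraries, and this one shares the high and medium dose libraries with them.

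A likelihood ratio test in DESeq2 asked whether a gene differed among the 4 groups at all. It passed an adjusted p of 0.05 for 7 of 9 genes, beside 45.8% of the genes tested. The adjusted p ran from 2.53e-47 for HLA-B to 0.000962 for HLA-F among the 7 that rose at the high dose, and was 0.447 for TAPBP and 0.299 for NLRC5.

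Per kilobase of exon sequence, B2M stood highest in vehicle at 4394 normalised counts, followed by HLA-C (3331), HLA-E (1537), HLA-B (1485), TAPBP (880), TAP1 (331), TAP2 (275), HLA-F (99.9) and NLRC5 (42.8). Of the neighbours in that order, HLA-E and HLA-B were the closest, with library ranges of 1514 to 1551 and 1478 to 1496 that did not overlap. The mean of HLA-B passed that of HLA-E at the medium and high doses, with 1649 and 2100 per kilobase beside 1583 and 1963 for HLA-E. Library ranges of HLA-B and HLA-E overlapped at the medium dose (1623 to 1674 and 1455 to 1669). At the high dose they did not (2031 to 2225 and 1929 to 2003). In vehicle and at the low dose their places turn with the length used, since HLA-B is above HLA-E in every group by the length of the canonical transcript. By the mean over all 12 libraries, dosed ones included, B2M was above 99.4% of 15125 genes compared per kilobase. HLA-C was above 99.1%, HLA-B and HLA-E above 97.5% each, and NLRC5 above 33.8%.

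Over the 12 libraries, Pearson correlations of log2 normalised counts among the 7 genes that rose lay between 0.81 and 0.98 over 21 pairs. The 7 were picked because they rose in these same libraries, so positive values among them follow from that choice. With the 7, TAPBP correlated between 0.37 and 0.65 and NLRC5 between -0.73 and -0.36. The libraries share the dose groups, so these values describe a common order by dose. The genes most like HLA-B were MTX3 (0.989), MEX3C (0.988) and NCKAP1 (0.987), and 1750 of 11264 genes with a mean of at least 100 had a correlation over 0.9 with it. For B2M they were EIF4A2 (0.993), STX7 (0.991) and SEC11C (0.988), and for TAP1 they were ANKHD1 (0.993), TPD52L2 (0.992) and TLCD2 (0.992).

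The remaining genes of the pathway were taken from lists. Of 6 genes for peptide trimming and loading, 4 were higher at the high dose by adjusted p (23.9% of genes tested) and 1 of these, CALR, was a DEG (8.66% of genes tested were DEGs in that direction). Calreticulin (CALR) is a chaperone of the loading complex and of glycoproteins at large. It had 33579, 33311 and 32129 normalised counts in vehicle, 42577, 41754 and 41885 under the medium dose, and 51082, 51762 and 50050 under the high dose, with no overlap between groups and a log2 fold change of 0.63 with the high dose (SE 0.0206, adjusted p = 8.14e-202, DESeq2). Its companions PDIA3 (0.43) and CANX (0.27) and the peptide-trimming aminopeptidase ERAP1 (0.46) were higher as well, whereas ERAP2 (0.02) and the tapasin-related TAPBPL (0.19) did not pass. The list's median was 0.35.

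The immunoproteasome list held 5 genes, of which 2 were higher by adjusted p at the high dose (23.9% of genes tested), PSME1 (log2 fold change 0.32, adjusted p = 4.67e-12, DESeq2) and PSMB10 (0.24, adjusted p = 0.0385, DESeq2). The catalytic subunits PSMB8 and PSMB9 did not. PSMB8 had 784, 768 and 722 normalised counts in vehicle and 828, 795 and 823 under the high dose, a log2 difference of 0.10 (95% interval -0.03 to 0.24, adjusted p = 0.235, DESeq2). Of their 3 counterparts in the constitutive proteasome, PSMB5 (-0.25) and PSMB6 (-0.13) were lower (22.6% of genes tested) and PSMB7 (-0.07) did not pass.

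Of 14 transcription factors that act at class I promoters, 5 were higher and 2 lower at the high dose by adjusted p (23.9% and 22.6% of genes tested), and IRF1 and STAT2 were DEGs (8.66% of genes tested were DEGs that rose). The list's median was 0.0090. IRF1, which binds interferon response elements, had 514, 558 and 532 normalised counts in vehicle, 486, 507 and 472 under the low dose, 539, 522 and 550 under the medium dose, and 1239, 1297 and 1274 under the high dose. The high dose libraries were far above all others, and the medium dose overlapped with vehicle. The log2 fold change was 1.25 with the high dose (SE 0.0674, adjusted p = 7.88e-75, DESeq2) and 0.0044 with the medium dose (95% interval -0.14 to 0.15, adjusted p = 0.973, DESeq2).

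STAT2, part of the factor that carries the type I interferon signal, had 695, 767 and 651 normalised counts in vehicle, 981, 931 and 979 under the medium dose and 1425, 1494 and 1452 under the high dose. The 3 groups did not overlap, and the log2 fold change was 0.45 with the medium dose (adjusted p = 1.45e-10, DESeq2) and 1.05 with the high dose (SE 0.0634, adjusted p = 7.79e-60, DESeq2). Its partner IRF9 (0.15, adjusted p = 0.268, DESeq2) did not pass. RELA (0.47), CREB1 (0.33) and NFYC (0.22) were higher, and RFX5 (-0.35) and NFYA (-0.20) lower.

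Of the interferon genes, 4 were looked at. IFNG, which encodes interferon gamma, held 0 counts in all 12 libraries, and IFNB1 held 0 in all but the high dose libraries, each of which held 2. IFNL1 held 0 outside the high dose, where it held 0 to 4. IFNE, an epithelial type I interferon, had 170 ± 3.93 normalised counts in vehicle and 126 ± 8.78 with the high dose (log2 fold change -0.43, adjusted p = 0.0151, DESeq2).

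The interferon receptor and kinase list of 9 genes held 1 DEG that rose, JAK2 (0.69, SE 0.0697, adjusted p = 4.51e-22, DESeq2), and 1 that fell, SOCS3 (-0.75, SE 0.0978, adjusted p = 1.44e-13, DESeq2), an inhibitor of JAK signalling. Of genes tested, 8.66% were DEGs that rose and 9.57% were DEGs that fell. JAK1 (0.39) and TYK2 (0.29) were also higher by adjusted p (23.9% of genes tested), and the receptor chains IFNAR1 (-0.28) and IFNGR2 (-0.33) lower (22.6%).

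Of 12 interferon-stimulated genes, 3 were higher and 5 lower at the high dose by adjusted p (23.9% and 22.6% of genes tested), and the list's median log2 fold change was -0.07. IFIT2 had 149, 159 and 131 normalised counts in vehicle and 357, 441 and 445 under the high dose (log2 fold change 1.50, SE 0.129, adjusted p = 2.94e-30, DESeq2), and IFIT3 rose by 0.67 (adjusted p = 4.20e-12, DESeq2). GBP1, a guanylate-binding protein, had 667, 626 and 648 in vehicle and 345, 397 and 370 under the high dose (log2 fold change -0.80, SE 0.0808, adjusted p = 5.41e-22, DESeq2). GBP2 changed by -0.91 (adjusted p = 6.10e-08, DESeq2). These 4 were the DEGs of the list (18.2% of genes tested were DEGs). BST2 (-0.35), IFITM1 (-0.52) and IFI44L (-0.50) were lower and MX1 (0.51) higher without being DEGs.

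**Figure D5:**
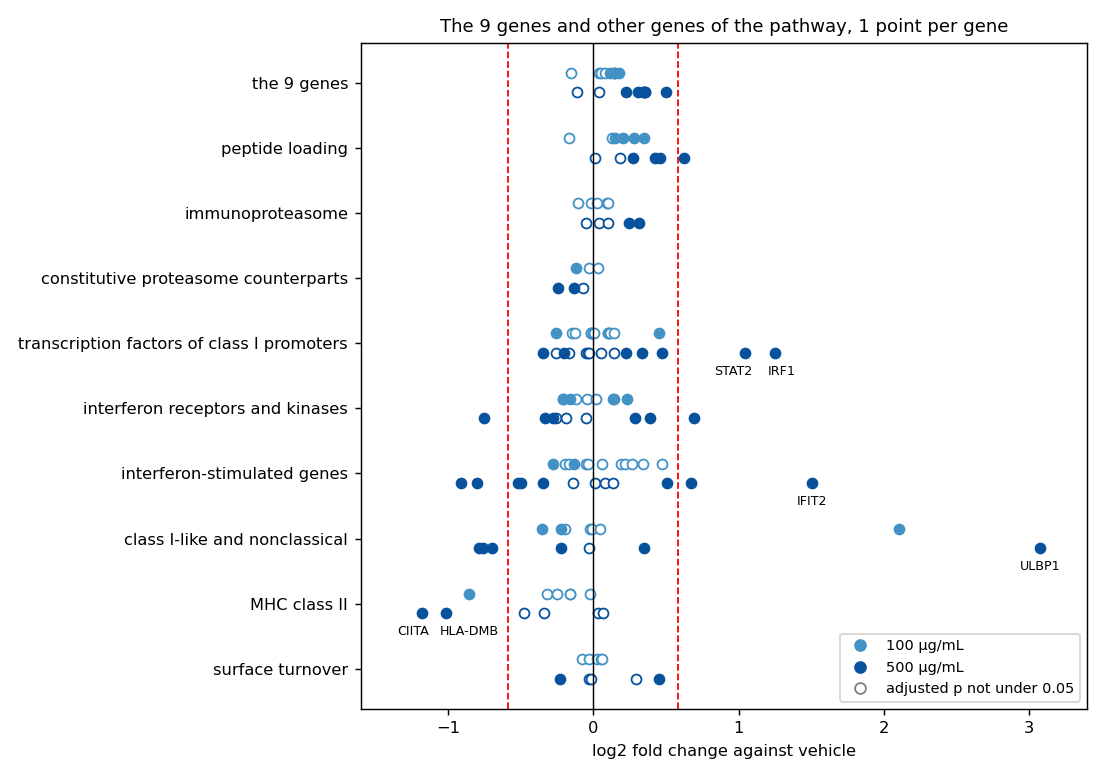
Log2 fold change against vehicle of each gene (points) averaging at least 10 normalised counts, by list, at 100 and 500 µg/mL. Filled points passed the adjusted p, and dashed lines mark the 1.5-fold threshold. The peptide loading list lies mostly to the right of 0, as the 9 class I genes do, whereas interferon-stimulated genes spread to both sides and MHC class II genes that passed lie to the left.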

How the data were processed

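RNA from 12 SW1783 libraries was analysed from expected counts per gene. The authors trimmed reads, aligned them with STAR to GRCh38 and deposited RSEM expected counts on an Ensembl annotation (release 84), which share reads among similar genes; 8.75% of the values were not whole. The submitters' processing notes name FastQC 0.11.9, Trim Galore 0.6.5, STAR 2.7.3a and RSEM 1.3.3. The libraries were made with a directional kit. The use of poly(A) selection and the strand setting of RSEM are not given in the sources used here.

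The expected counts were rounded. Symbols, coordinates and exon lengths came from GENCODE v44, which held 56558 of the 60675 IDs (93.21%). Chi-square statistics between replicates were 1.99 to 3.55 per degree of freedom, so every library was kept as a replicate. Total counts per library were 18863863 to 24200576, and each SE reflects both this depth and the spread between libraries. Groups came from the sample titles, all 12 columns were used and 0 were left over. The labels give no batch.

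The DESeq2 1.42.0 Wald test (R 4.3.3, two-sided), which the study's methods name, was fitted to all 12 libraries and all genes with group as the only term, with p-values adjusted by Benjamini-Hochberg over all genes tested. A DEG had an adjusted p under 0.05 and a fold change over 1.5. Independent filtering used a level of 0.05. The background share of calls in each comparison stands beside the first count of genes called.

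Alternatives were edgeR 4.0.16 (quasi-likelihood, TMM), TMM or non-mitochondrial size factors, a filter on low counts, no independent filtering or a level of 0.1, no fold threshold, a test against that threshold, only the compared groups, a replicate block, leaving out each library, and, added after the data were seen, the count by adjusted p alone and canonical transcript lengths. The procedure was tested on simulated data.

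All 9 genes are named, with up to 4 DEGs a list that averaged at least 10 normalised counts, those with the largest changes at the high dose, and PSMB8, PSMB9 and IRF1 whatever their values. Other listed genes are named after their values were seen. Genes of like pattern are the 3 with the highest correlation with HLA-B, B2M and TAP1. The 9 genes and all lists were chosen with earlier results of these data known. Levels between genes are normalised counts per kilobase of exon union. Promoter windows are from RefSeq (GRCh38.p14). Some listed genes are not reported here.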

Additional observations from a re-analysis of the deposited data

How the results depend on the processing

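No log2 fold change of a gene that passed the adjusted p changed sign under the 20 alternatives run for each. Of 792 recomputed values of single genes, 765 kept their direction and side of the thresholds, 18 crossed into being called because the fold threshold was dropped, and 9 changed sign. As 0 genes were called in the main fit, a lost adjusted p alone did not count as a change here. Alternatives that changed only the independent filtering or the thresholds kept the main fold changes, so their values could not change sign. By adjusted p alone 7 (high), 4 (medium), 1 (low) and 6 (high against medium) genes were called, where the fold threshold left 0. The single low dose gene became 0 in edgeR, with the non-mitochondrial total and with no independent filtering. Leaving out 1 library gave counts by adjusted p alone of 7 (high) and 3 to 5 (medium). It gave 0 to 1 (low) and 5 to 6 (high against medium). Over all alternatives the adjusted p of TAP2 reached 0.0670 at the medium dose and 0.0566 between high and medium. At the medium dose those of HLA-E and NLRC5 fell to 0.0493 and 0.0300. Between high and medium that of HLA-F fell to 0.0125. The 9 changes of sign all concerned values near 0. TAPBP at the high dose was -0.012 with the non-mitochondrial total, which moved all genes by -0.05 on the log2 scale. Between high and medium dose, leaving out 1 library at a time gave TAPBP values of -0.031 to 0.0074. At the low dose it gave -0.061 to 0.021 for HLA-B, -0.033 to 0.0092 for HLA-E, -0.0041 to 0.095 for HLA-F, -0.041 to 0.0047 for TAP1 and -0.0059 to 0.023 for TAPBP. The cause was not tested. In edgeR 8 of 9 genes differed among the 4 groups, beside 7 in DESeq2 (45.8% of genes tested). The share of all genes was not taken for that edgeR test, so its count has no background to be read against. Over all alternatives the high dose log2 fold change of HLA-B lay between 0.45 and 0.53. TMM factors moved all genes by -0.0042 at most. By canonical transcript length, vehicle levels per kilobase were 14542 for B2M and 4469 for HLA-B. Genes with a mean of at least 400 had a median SE of 0.06. The smallest change of the 9 genes that passed the adjusted p in the main fit was 7.41%, and smaller ones could be missed.

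With the replicate number as a block, 0 genes were called in each comparison, 7, 4, 1 and 6 passed the adjusted p alone, and no call changed. The labels do not say whether libraries with the same number are paired. Deviations of same-numbered libraries correlated between -0.12 and 0.22, and 5 of 18 pairs were over 0.1 (0 of 36 pairs with other numbers, at most 0.098). Of 12 libraries, 8 correlated best with their own number in another group. Some same-numbered libraries thus shared deviations, and the source of this was not tested.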

Other observations

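Of 9 class I-like and other nonclassical genes, 2 were higher and 4 lower at the high dose by DESeq2 adjusted p (23.9% and 22.6% of genes tested). ULBP1, a stress-induced ligand of the natural killer receptor NKG2D, had 17.4, 15.8 and 15.6 normalised counts in vehicle, 21.2, 9.18 and 22.0 under the low dose, 60.3, 69.9 and 79.2 under the medium dose, and 138, 121 and 152 under the high dose. Its log2 fold change was 2.11 with the medium dose (SE 0.299, adjusted p = 4.93e-11, DESeq2) and 3.07 with the high dose (SE 0.291, adjusted p = 6.52e-25, DESeq2), and the medium and high dose libraries were clear of vehicle. Other ligands of that receptor differed: MICA rose by 0.35, ULBP2 changed by -0.22, ULBP3 by -0.78 (adjusted p = 3.86e-05, DESeq2) and MICB (-0.03) did not pass. HFE, which controls iron uptake, went from 675 ± 23.1 to 400 ± 12.2 (log2 fold change -0.76), and MR1, which presents vitamin B metabolites, from 586 ± 22.6 to 362 ± 21.1 (log2 fold change -0.70). HLA-G, a nonclassical heavy chain, held at most 2 counts in any library.

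Of 8 MHC class II genes, 2 were lower at the high dose by adjusted p (22.6% of genes tested). CIITA, the class II co-activator and a relative of NLRC5, had 228, 259 and 246 normalised counts in vehicle and 93.8, 114 and 114 under the high dose, a log2 difference of -1.18 (SE 0.143, adjusted p = 1.33e-15, DESeq2). HLA-DMB, which edits class II peptides, changed by -1.01 (adjusted p = 0.000984, DESeq2). The other 6 of the 8 class II genes did not pass, among them HLA-DRA (0.03) and CD74 (0.07). Of 5 genes for turnover of class I at the surface, SUSD6 was higher (0.45, adjusted p = 2.97e-13, DESeq2), SPPL2A lower (-0.23, adjusted p = 3.82e-06, DESeq2), and 3 did not pass. Of all genes tested, 23.9% were higher and 22.6% lower.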
